A study of Mus musculus with 2 samples.

Results

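The acyl-CoA thioesterase family was followed through 10 genes, Acot1, Acot2, Acot3, Acot4, Acot5, Acot7, Acot8, Acot9, Acot12 and Acot13, on the liver arrays of 1 Drp1 knockout mouse and 1 wild type mouse. The genes were taken by name, as the array files name their probes. They carried 13 of the 39429 gene probes, and all 13 were well above background on both arrays, so that the 10 genes stand among 15385 genes measured on both. The genes were selected on the differences between these same 2 arrays, so their differences are a description and were not tested. Both mice were C57BL/6J males whose livers were sampled after 24 weeks on high-fat chow made with lard, which held 24% fat and drew 45% of its calories from it, begun at 4 weeks of age. Drp1 is the GTPase that divides mitochondria, encoded by Dnm1l. The series title places its disruption in the liver, while the Cre driver and the deleted part of the gene are not given in the sources used here. The labels do not say whether these livers were taken after the 17-hour fast or after 4 hours of refeeding, so feeding state and genotype cannot be told apart should the mice have differed in it. Both arrays lay on 1 slide, and the share of gene probes detected well above background was 57.1% in the knockout and 50.5% in the wild type. With 1 array per group there is no replicate check and no p-value. The number of arrays limits the precision.

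Acyl-CoA thioesterases split an activated fatty acid, or a shorter acyl-CoA, into the free acid and coenzyme A. They work against the acyl-CoA synthetases, and the same reaction is carried out by different enzymes in the cytosol, the mitochondrial matrix and the peroxisome. In mouse liver several genes of the family are known targets of PPARa, the nuclear receptor that responds to fatty acids, and are induced by fasting and by fatty diets. Acot1 to Acot6 are close relatives that lie side by side on chromosome 12, and their transcripts resemble each other. Acot9 and Acot10 are likewise similar to each other.

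Because of that resemblance, the probe sequences matter for which gene a value belongs to. They are shown for the cluster genes and for Acot9 with its relative Acot10, in capitals where at least 15 bases in a row also occur, on either strand, in the array's probe for another gene. Each probe is 60 bases long and is written 5′ to 3′ as in the array files, with mm9 positions as deposited. For the Acot5 probe at transcript position 1441 these positions span fewer bases than its sequence.
Acot2, chr12:85334071-85334130, plus strand: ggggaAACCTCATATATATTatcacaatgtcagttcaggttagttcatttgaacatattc
Acot1, chr12:85358561-85358620, plus strand: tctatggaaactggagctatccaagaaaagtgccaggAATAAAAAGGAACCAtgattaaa
Acot4, chr12:85384821-85384880, plus strand: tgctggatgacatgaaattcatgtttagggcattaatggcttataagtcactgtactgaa
Acot3 at transcript position 1546, chr12:85399468-85399527, plus strand: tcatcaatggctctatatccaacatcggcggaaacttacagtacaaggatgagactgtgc
Acot3 at transcript position 2530, chr12:85400452-85400511, plus strand: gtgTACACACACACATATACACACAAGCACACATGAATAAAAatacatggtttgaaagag
Acot5 at transcript position 1182, chr12:85416634-85416693, plus strand: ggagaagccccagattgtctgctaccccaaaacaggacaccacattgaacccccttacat
Acot5 at transcript position 1441, chr12:85416893-85416951, plus strand: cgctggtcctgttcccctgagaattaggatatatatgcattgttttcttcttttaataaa
Acot9, chrX:151731124-151731183, plus strand: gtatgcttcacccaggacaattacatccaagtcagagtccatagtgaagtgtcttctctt
Acot10, chr15:20595989-20596048, minus strand: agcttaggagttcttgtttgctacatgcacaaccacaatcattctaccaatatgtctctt

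No 2 probes of different Acot genes shared more than 9 bases in a row over 132 pairs, with Acot6, Acot10 and Acot11 included. Aligned without gaps over at least 30 bases, such a pair matched at 57.1% of positions at most. The probes of the cluster genes therefore differ in sequence from one another. The full transcripts of the relatives were not used here. The comparison thus cannot tell whether a probe also matches the transcript of a relative. The second Acot3 probe, at transcript position 2530, is the exception in another sense. It runs through a CA repeat, and 39 of its 60 bases lie in runs that also occur in the probes of other genes, 9 probes in all, with a longest shared run of 21 bases. The Acot3 probe at position 1546 shares no such run.

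A level is the probe's signal divided by the 75th percentile of signals on the same array, and a difference is a log2 value, knockout minus wild type. Levels of different probes are not set against each other, since probes differ in how strongly they bind. Where a probe was printed in several spots, the SD among them was 0.083 on the knockout array and 0.11 on the wild type array (log2), which gives a difference between the arrays a spot error of 0.14. The scanner software's own error for a difference of these probes was larger, from 0.20 to 0.34 log2 units. Each of the 13 probes was printed as 1 spot, and 0 of their spots were saturated or marked as outliers. Both errors leave out the spread between animals.

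In the knockout, 2 of the 10 Acot genes exceeded the wild type by 1.5-fold or more, against 8.42% of all measured genes, and 1 lay below it by as much, against 13.4%. The higher ones were Acot2 and Acot9, which encode mitochondrial enzymes, and the lower one was Acot3, which encodes a peroxisomal enzyme. The other 7 lay within 1.5-fold. All 3 also passed 2-fold, where the shares among all genes were 2.91% higher and 3.64% lower. The median of the 10 genes was -0.18, beside -0.11 for all measured genes, so the family as a whole lay near the middle of the array while its members ranged from -1.60 to 2.47.

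**Figure D1:**
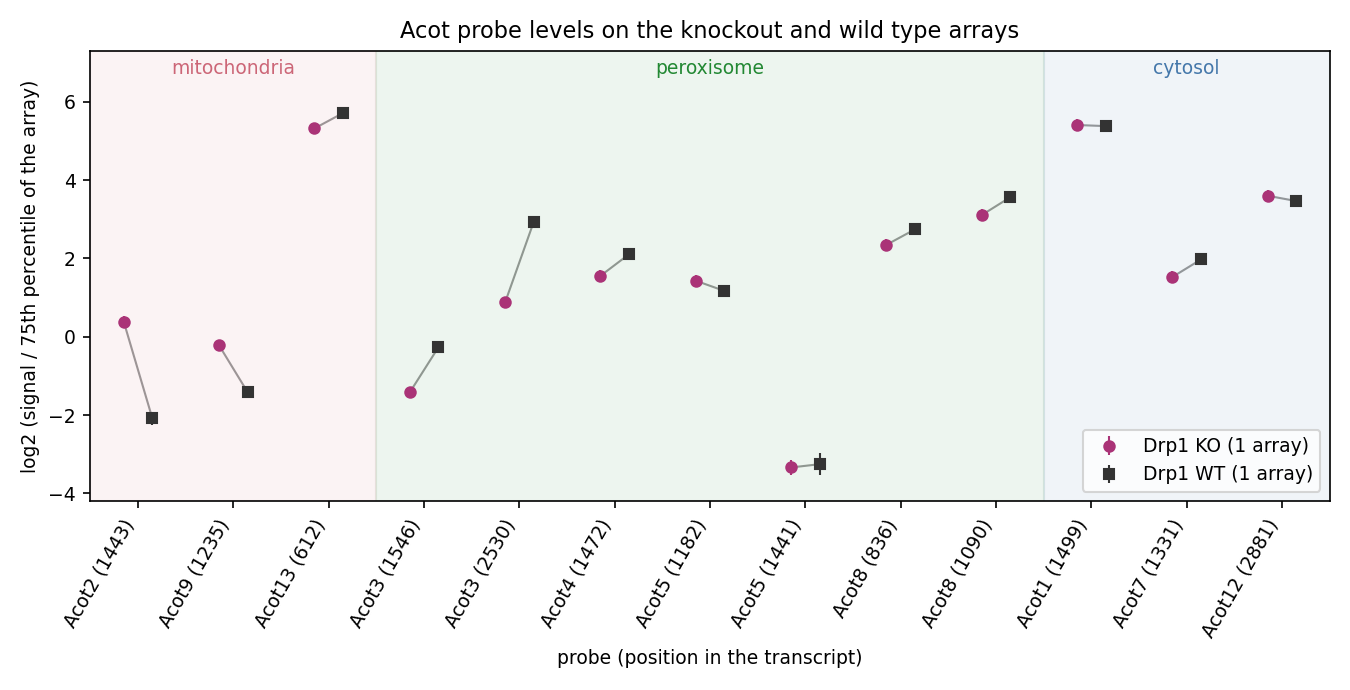
Log2 level of each of the 13 Acot probes, relative to the 75th percentile of its array, on the knockout array (circles) and the wild type array (squares), 1 array each, with the scanner software's error as bars. The knockout circle lies far above the wild type square for Acot2 and Acot9 and far below it for both Acot3 probes, while the other pairs lie close together.

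Acot2 hydrolyses long-chain acyl-CoA in the mitochondrial matrix. Its probe gave 1.30 times the 75th percentile on the knockout array, against 0.236 on the wild type array. The gene was thus 5.53-fold higher in the knockout, a log2 difference of 2.47 with a scanner software error of 0.23. Only 33 of the 15385 measured genes had a greater difference. In the authors' deposited table the probe read 771 in the knockout and 141 in the wild type. Before background treatment the spot averaged 957 on the knockout array and 175 on the wild type array. The local backgrounds were 71 and 67, so the wild type value is a dim one. The knockout array was the brighter one. Its 75th percentile of processed signals was 722, against 461 on the wild type array, so unscaled signals do not give the difference.

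Acot9, a mitochondrial thioesterase, stood at 0.858 times the 75th percentile in the knockout and 0.374 in the wild type. It was 2.29-fold higher in the knockout, with a log2 difference of 1.20, and 287 genes had a greater one. The authors' deposited table held 510 for the knockout and 222 for the wild type. Its relative Acot10, also mitochondrial, did not share this difference, at 0.382 times the 75th percentile in the knockout and 0.366 in the wild type, a log2 difference of 0.063.

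Acot13, known as Them2, is a small thioesterase associated with mitochondria that binds phosphatidylcholine transfer protein. It read 39.9 times the 75th percentile in the knockout and 52.4 in the wild type. Its log2 difference of -0.39 was below 1.5-fold and opposite in sign to those of the other mitochondrial members. The mitochondrial members lay 2.86 log2 units apart. The sign of Acot13 depended on the scaling. It lay between -0.089 and -0.084 under quantile and loess normalization and in the authors' deposited table. Under spike-in scaling Acot13 stood at 0.41, below the median of 0.70 for all genes. Every member but Acot3 was above 0 under that scaling.

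Among the peroxisomal enzymes, Acot3 prefers long-chain acyl-CoA. Its probe at position 1546 stood at 0.374 times the 75th percentile in the knockout, against 0.829 in the wild type. The repeat-bearing probe at position 2530 stood at 1.84 in the knockout, against 7.63 in the wild type. Both probes were lower in the knockout, by log2 differences of -1.15 and -2.05, and the gene's mean of -1.60 makes it 3.04-fold lower. Only 146 measured genes had a lower difference. The gap of 0.90 between its probes exceeds the spot error, and 93.8% of the 2772 genes with 2 measured probes had a smaller gap. The probe free of the repeat, taken alone, puts the gene at 2.22-fold lower, and the repeat-bearing one at 4.15-fold.

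Acot4, a peroxisomal enzyme that cleaves succinyl-CoA and glutaryl-CoA, stood at 2.94 times the 75th percentile in the knockout and 4.31 in the wild type. Its log2 difference of -0.55 falls just short of 1.5-fold, which is 0.58 on this scale, and the scanner software's error of 0.20 spans that limit, as it does for Acot7, Acot8 and Acot13. Acot5, a peroxisomal enzyme of medium-chain acyl-CoA, had 1 probe at 2.69 in the knockout and 2.25 in the wild type, and another at 0.0990 in the knockout and 0.105 in the wild type. The probes differed in sign, at 0.26 and -0.084, and the gene's mean of 0.088 is within the spot error. Acot8, a peroxisomal thioesterase of broad substrate range that also acts on bile acid CoA esters, read 5.09 in the knockout and 6.69 in the wild type at position 836. Its probe at position 1090 read 8.61 in the knockout and 11.8 in the wild type. The differences, -0.40 and -0.46, were close to each other, and their mean of -0.43 is below 1.5-fold.

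The cytosolic members showed the smallest range, 0.58 log2 units from lowest to highest, and 0 of 3 passed 1.5-fold. Acot1, the cytosolic long-chain enzyme and the closest relative of Acot2, read 42.4 times the 75th percentile in the knockout and 41.5 in the wild type. Its log2 difference of 0.028 lies within the spot error. Acot12, a cytosolic acetyl-CoA hydrolase, read 12.1 in the knockout and 11.0 in the wild type, a difference of 0.14. Acot7, a cytosolic long-chain enzyme best known from brain, read 2.88 in the knockout and 3.93 in the wild type, a difference of -0.45.

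**Figure D2:**
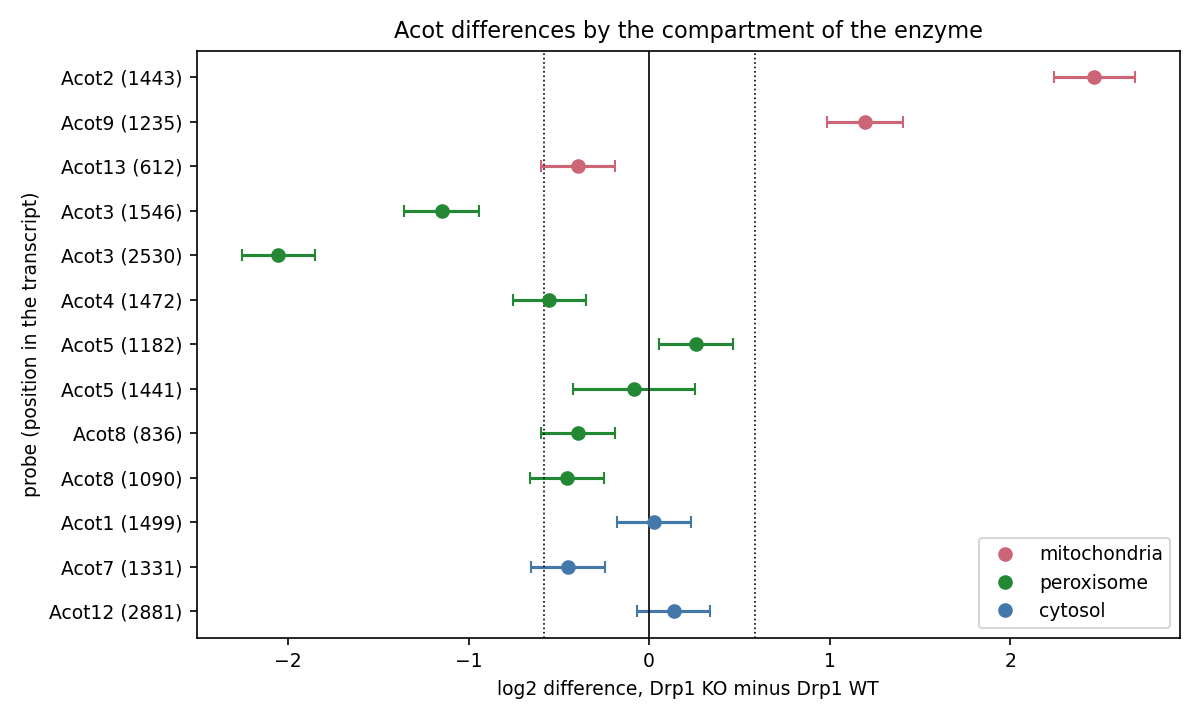
Log2 difference, knockout minus wild type, of each Acot probe, with the scanner software's error as bars and colours for the compartment of the enzyme. Dotted lines mark 1.5-fold, which Acot2 and Acot9 pass on the higher side and both Acot3 probes on the lower side.

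By compartment, the medians were 1.20 for the 3 mitochondrial, -0.49 for the 4 peroxisomal and 0.028 for the 3 cytosolic genes. Each median rests on 3 or 4 genes and no test was made between compartments. Under the main scaling the mitochondrial group held 2 genes above and 1 below 0, the peroxisomal group 1 above and 3 below, and the cytosolic group 2 above and 1 below. Members of different compartments could also lie close together, as cytosolic Acot7 at -0.45, peroxisomal Acot8 at -0.43 and mitochondrial Acot13 at -0.39 did. Among the long-chain enzymes of the chromosome 12 cluster, the difference of mitochondrial Acot2 exceeded that of cytosolic Acot1 by 2.44 log2 units and that of peroxisomal Acot3 by 4.07. Such a gap does not depend on a constant scaling between the arrays. Over all processing settings that kept both genes the gap between Acot2 and Acot3 stayed between 3.39 and 4.52.

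**Figure D3:**
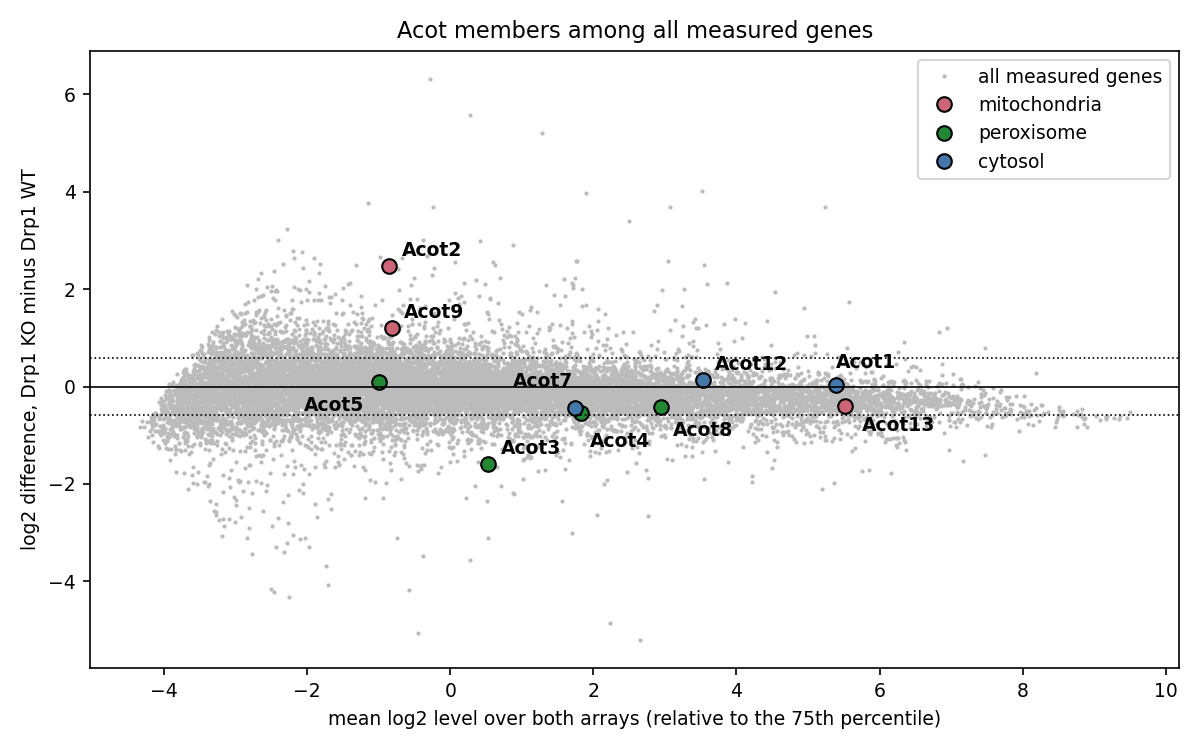
Log2 difference, knockout minus wild type, against the mean log2 level over both arrays for 15385 measured genes (grey), with the 10 Acot genes coloured by compartment and dotted lines at 1.5-fold. Acot2 and Acot9 lie above the grey cloud's centre and Acot3 below it, while the other 7 lie between the dotted lines.

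The chromosome 12 cluster holds both Acot2 and Acot3, with Acot1 and Acot4 between them. In the RefSeq annotation the coding genes follow in the order Acot2, Acot1, Acot4, Acot3, Acot5 and Acot6, and their probes span 118 kb in mm9. Along it the differences were 2.47 for Acot2, 0.028 for Acot1, -0.55 for Acot4, -1.60 for Acot3 and 0.088 for Acot5. Acot1 lies 24.5 kb from Acot2 by their probes and did not share its difference. Acot6, which was no member here, had 1 probe well above background, at 0.199 times the 75th percentile in the knockout and 0.166 in the wild type (0.26), and 1 that was not well above background on either array. The flanking genes were named after their values were seen. Riox1, whose probe lies 40.5 kb before that of Acot2, stood at 0.531 in the knockout and 0.523 in the wild type, a difference of 0.023. Mideas, on the other side, had 1 probe well above background on both arrays, at 0.315 in the knockout and 0.149 in the wild type, a difference of 1.08. Its other 2 probes were well above background in the knockout alone, with measured differences of 1.51 and 0.61. Dnal1 and Pnma1, on the same side, were not well above background on either array.

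**Figure D4:**
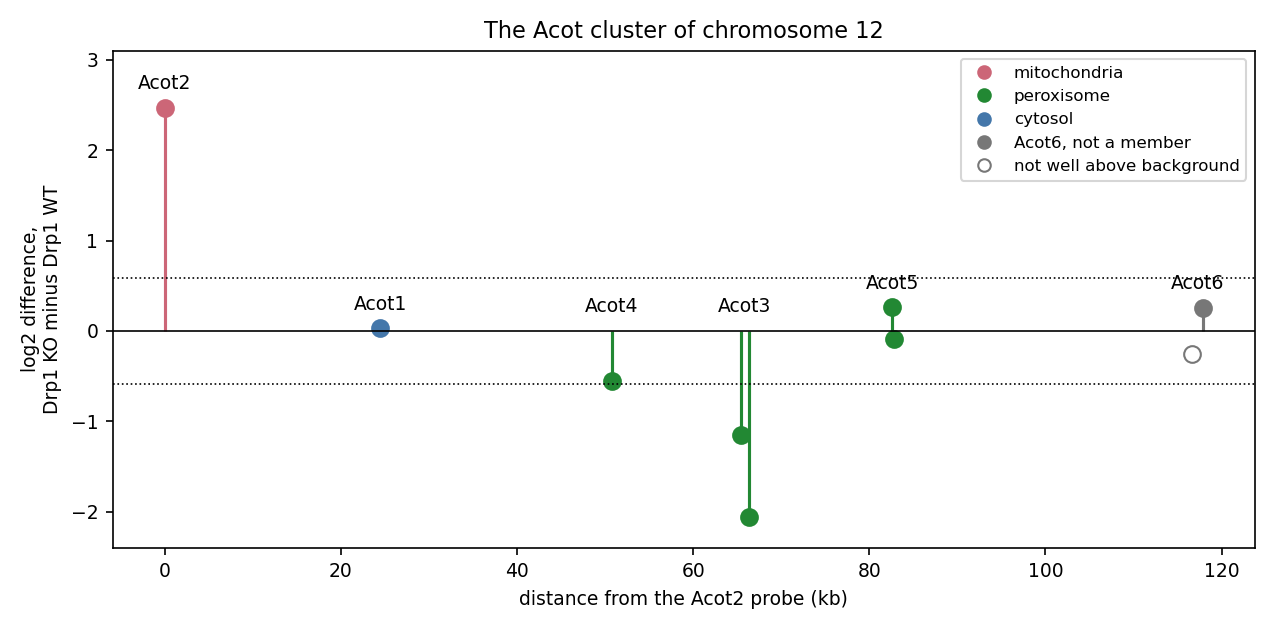
Log2 difference, knockout minus wild type, of each probe of the Acot cluster against its distance from the Acot2 probe in kb. Filled points were well above background on both arrays, the open one on neither. The first gene of the cluster stands at 2.47, its neighbour near 0, and the Acot3 probes at -1.15 and -2.05.

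The sequence before the start of each gene was searched. It is shown for Acot2 and Acot3, genes of the cluster that differed in opposite directions. It is also shown for Acot4, the only member with the PPARa repeat described below. Acot4 lies between them, as does Acot1, whose sequence is not shown. RefSeq promoters of GRCm38.p6 matched 9 of the 10 genes by symbol, in 11 entries, and the 250 bases before the start were used. The motifs were a direct repeat of the kind bound by PPARa with RXR, spelled GGNCA, then A, then AGGNCA, the related core AGGTCA, which can overlap the repeat, and TGATGNAA, a composite site of Atf4 and C/EBP factors. Both strands were searched. The repeat occurred before 1 member, Acot4, and in 0.192% of 32851 promoters of the same length. The core occurred before Acot4, Acot5 and Acot12, and in 14.0% of all promoters. The Atf4 composite site was in 0 of the members' windows and in 3.45% of all promoters. A match is a description of letters, and its absence says only that these letters are not in this window.
Acot2, chr12:83987611-83987860, GRCm38.p6, plus strand: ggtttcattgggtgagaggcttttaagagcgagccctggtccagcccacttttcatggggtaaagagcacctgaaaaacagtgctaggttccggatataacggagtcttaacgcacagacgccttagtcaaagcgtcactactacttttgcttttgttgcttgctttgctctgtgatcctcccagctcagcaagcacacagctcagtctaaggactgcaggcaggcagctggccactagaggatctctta
Acot3, chr12:84051894-84052143, GRCm38.p6, plus strand: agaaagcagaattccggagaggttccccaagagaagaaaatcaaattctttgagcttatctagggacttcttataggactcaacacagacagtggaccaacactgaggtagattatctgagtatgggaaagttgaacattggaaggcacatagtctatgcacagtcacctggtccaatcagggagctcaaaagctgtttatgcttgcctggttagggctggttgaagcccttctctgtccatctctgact
Acot4, chr12:84038129-84038378, GRCm38.p6, plus strand: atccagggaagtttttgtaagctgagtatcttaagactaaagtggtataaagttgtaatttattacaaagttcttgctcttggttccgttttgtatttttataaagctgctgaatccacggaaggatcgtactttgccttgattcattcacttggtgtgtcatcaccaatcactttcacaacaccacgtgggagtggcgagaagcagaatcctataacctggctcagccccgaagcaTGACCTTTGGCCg
Capitals mark the motif matches. The Acot4 match lies from 13 to 2 bases before the start, while the windows of Acot2 and Acot3 held none of the motifs searched.

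Other enzymes that cleave acyl-CoA or remove acyl groups mostly lay within 1.5-fold. Of 24 listed genes, 21 were measured on both arrays, with 0 higher (beside 8.42% of all genes), 2 lower (9.52%, beside 13.4%) and a median of -0.15, beside -0.11 for all genes. The lower ones were Nudt7, a peroxisomal enzyme that degrades coenzyme A, at 13.6 times the 75th percentile in the knockout and 38.8 in the wild type (2.85-fold lower), and Acot11. Acot11, or Them1, is a long-chain thioesterase best known from brown fat, and stood at 0.254 in the knockout and 0.678 in the wild type (2.67-fold lower). Next came Acnat1, an acyltransferase of peroxisomes, at -0.55, the deacylase Lypla2 at -0.50 and Nudt8 at -0.47, each short of 1.5-fold. The 21 measured genes include Tesc, at 0.34, which encodes the calcium-binding protein tescalcin and not an enzyme that cleaves acyl-CoA.

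The synthetases, which make the substrates of the thioesterases, and the acyl-CoA binding proteins were measured for 23 of 30 listed genes. Of these, 3 were higher by 1.5-fold (13.0%, beside 8.42% of all genes) and 8 lower (34.8%, beside 13.4%), with a median of -0.42. Acsl4, a synthetase that prefers arachidonic acid, stood at 6.68 times the 75th percentile in the knockout and 2.09 in the wild type, 3.20-fold higher. Slc27a3 was 2.02-fold and the Golgi protein Acbd3 1.81-fold higher. Acss3, a mitochondrial short-chain synthetase, was 3.25-fold lower, at 0.134 in the knockout and 0.436 in the wild type, and Acbd4 was 1.94-fold lower. The remaining lower genes lay close to the limit, between 1.51-fold and 1.67-fold lower. All 3 lists were counted under the main scaling alone, so whether these counts hold under another scaling was not tested.

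Fatty acid oxidation genes and PPARa targets, among which several Acot genes are usually counted, were all 62 measured. Of them 9 were higher by 1.5-fold (14.5%, beside 8.42% of all genes) and 7 lower (11.3%, beside 13.4%). The other 46 lay between, and the median was -0.15. The 9 include Ctps, 1.64-fold higher, which encodes CTP synthase and not a fatty acid oxidation enzyme. Fgf21, a liver hormone, was 5.98-fold higher, Cidec, a lipid droplet protein, 3.70-fold, the peroxisomal enzyme Ehhadh 3.31-fold and Pdk4, an inhibitory kinase of pyruvate dehydrogenase, 2.37-fold. Abcd2, a peroxisomal fatty acid transporter, was 2.57-fold lower. Ppara itself was 2.18-fold lower, at 7.34 times the 75th percentile in the knockout and 16.0 in the wild type, with its 3 probes between -1.22 and -1.06. The 3 lists share Fabp1 between the synthetases and the PPARa targets, and all were drawn up with earlier results of these arrays known.

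Marker genes of several liver cell types and of neighbouring tissues also differed between the arrays. They were counted as higher or lower at 1.5-fold under the main scaling alone. Of all measured genes, 8.42% were higher and 13.4% lower by as much. All 10 hepatocyte markers were well above background on both arrays, with a median difference of -0.50. Of these, 2 were higher (Tat at 1.04 and Cps1 at 0.60) and 3 lower (Ttr at -0.63, Serpina1a at -0.61 and Cyp2e1 at -0.59). Their summed level over all 10 was 2283 in the knockout and 3273 in the wild type. Of 10 skeletal muscle markers, 1 was well above background in the knockout and 8 in the wild type (summed level 0.293 against 10.3), with Mylpf and Actn3 on neither. Of 10 adipocyte markers, 5 were so in the knockout and 6 in the wild type, with summed levels of 7.12 against 17.5. Among them 1 was higher (Lpl at 0.98), 3 were lower (Cfd at -5.07, Cidea at -3.12 and Plin4 at -1.03) and Fabp4 stood at 0.015. Cfd read 0.126 in the knockout and 4.23 in the wild type, and Ucp1 was well above background in the wild type alone. Adipoq, Plin1, Lep and Retn were well above background on neither array. Macrophage markers were all 10 measured, with 5 higher and 0 lower (51.7 against 39.5), and of 5 stellate cell markers 4 were higher (2.87 against 1.24). Of 5 endothelial markers 2 were higher (9.72 against 12.2), and of 3 measured bile duct markers 2 were (1.08 against 0.494), with Epcam on neither array. Their part in the Acot differences was not tested. In whole liver RNA, fewer cells of a type and less RNA per cell cannot be told apart. Values of bright probes also moved with the scaling. Under quantile normalization Acot13 went from -0.39 to -0.084 and Acot1 from 0.028 to 0.33, both bright genes. Whether the hepatocyte and other marker differences hold under another scaling was not tested. The probe of the targeted gene, Dnm1l, differed by -0.21, and since the deleted part is not given, it does not check the knockout label.

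The Acot calls were also set against other ways of processing the arrays. Under 8 other settings, Acot3 stayed at least 1.5-fold lower, between -2.05 and -1.43, and Acot9 at least 1.5-fold higher, between 0.94 and 1.21. Acot2 lay between 1.97 and 2.48 in the 7 settings that kept its probe, and its wild type value was too dim for the stricter filter. Quantile and loess normalization and the authors' deposited table moved Acot1 up to 0.33. Acot5 changed sign under normexp background correction, at -0.0079. Scaling to spike-in spots, chosen after seeing the data, raised the median of all genes by 0.81 and all Acot values with it. Under it Acot2 stood at 3.27, Acot9 at 2.00 and Acot3 at -0.79, while Acot4, Acot7, Acot8 and Acot13 turned from below to above 0, at 0.25, 0.36, 0.38 and 0.41.

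**Figure D5:**
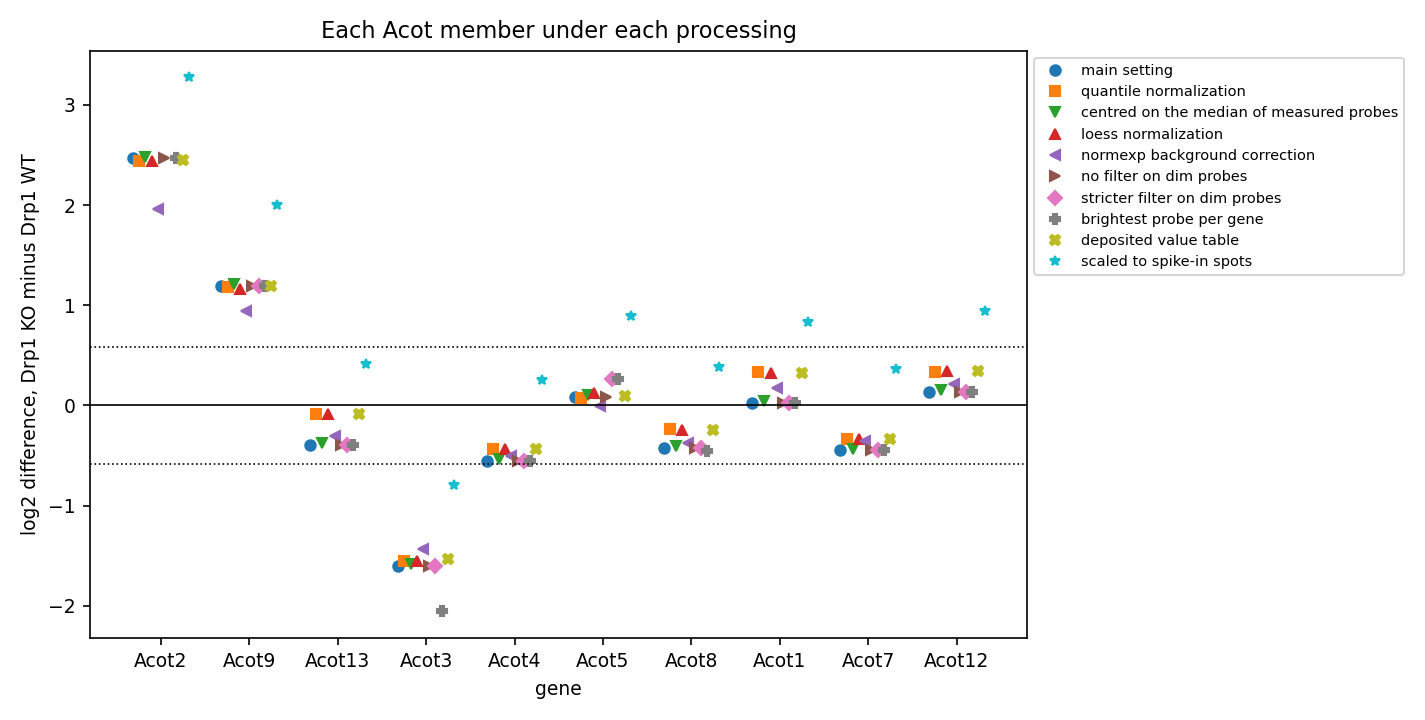
Log2 difference, knockout minus wild type, of each Acot gene under the main processing and 9 alternatives, with dotted lines at 1.5-fold. Acot2 and Acot9 lie above the upper line and Acot3 below the lower line under every setting that kept them, and scaling to spike-in spots lifts all genes.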

How the data were processed

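Liver RNA was labelled with Cy3 and hybridised to 1-colour Agilent mouse arrays, 1 per group, per the labels. The deposited scanner files hold fluorescence intensities that Feature Extraction background-subtracted and spatially detrended, per the file headers (module version 10.7.1.1, while the submitters' processing notes name 9.5.1.1). The authors' deposited value table holds intensities that are equal by rank to within 0.0417% between its columns, as quantile normalization gives, and served as an alternative.

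Signals were divided by the 75th percentile over 43020 non-control spots of the array and log2-transformed. Outlier spots were left out. Each gene's value averages those of its probes that were well above background on both arrays. Probes were named through RefSeq genes of GRCm38.p6 (26761 by accession, 4453 by symbol or synonym, 8215 kept as in the files). Probe positions are in mm9 as deposited; exon and UTR annotation was not used here. Quantile, loess (span 0.3) and normexp (offset 50) settings used limma 3.58.1 in R 4.3.3, and the rest Python 3.11.15. The other alternatives were centring on the median, no filter on dim probes, a stricter one at the 25th percentile of measured probes, the brightest probe per gene, the deposited table and, added later, spike-in scaling. The summary was tested on simulated data.

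The members, lists and markers were chosen with earlier results of these data known. Named were all members and, from each list, the 5 measured genes with the greatest absolute difference, plus Ppara. Ctps and Tesc are named besides, for what they encode. With 1 array per group no likeness of pattern between genes could be measured. Acot13, without a promoter entry, is named only.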

Additional observations from a re-analysis of the deposited data

How the results depend on the processing

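The counts of Acot genes at least 1.5-fold higher (2) and lower (1) in the knockout were the same under quantile, loess, median-centred and normexp processing, without a filter, with the brightest probe per gene, with the authors' deposited table and at 2-fold. The stricter filter on dim probes left 1 higher, because Acot2 was no longer kept, and spike-in scaling gave 5 of 10 higher, where 60.8% of all measured genes were higher. The median of the 10 genes, -0.18, became -0.0027 with quantile normalization, 0.019 with loess, 0.0014 with the deposited table, -0.39 with the stricter filter, which keeps 9 genes, and 0.62 with spike-in scaling. The median of all genes moved by 0.81 under spike-in scaling, by -0.20 without a filter and by less than 0.1 otherwise. Of 118 values under an alternative, 82 moved by less than the spot error or kept their count, 36 moved further and 0 turned a 1.5-fold difference to the opposite sign. The cause of the other moves was not tested. No paired analysis was possible because each group holds 1 array and the labels carry no replicate numbers. Leaving out a replicate and a slide block were not run for the same reason. Signal over background limits Acot2 in the wild type and the second Acot5 probe most.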
